A study of Homo sapiens with 6 samples.

Results

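The Kruppel-like factors (KLFs) examined here were the 10 members KLF2, KLF3, KLF4, KLF5, KLF6, KLF7, KLF9, KLF10, KLF11 and KLF13, chosen by name and looked up by symbol among the 58302 genes of the count data. Each of the 10 was found, and they were chosen with earlier results of these data known. The study asked which genes depend on Smyca, a nuclear long noncoding RNA transcribed from MIR23AHG, and sequenced rRNA-depleted RNA of a human cancer line after knockdown. 3 libraries came from cells expressing a control shRNA and 3 from cells expressing Smyca shRNA #1, all labelled as MDA-MB-231, a line derived from a triple-negative breast cancer. A single Smyca shRNA was sequenced, in 1 cell line that expressed the shRNAs stably, so effects of Smyca and of this one shRNA cannot be told apart. The study calls its repeats biological, while the sample labels do not say that they were separate cultures, so the p-values measure the spread between these libraries.

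KLFs are transcription factors that bind GC-rich and CACCC-type DNA through a conserved set of C-terminal zinc fingers. Their N-terminal parts differ, and with them the partners: KLF2, KLF4, KLF5 and KLF6 often act as activators that work with acetyltransferases such as p300, KLF3 recruits the corepressor CtBP, and KLF9, KLF10, KLF11 and KLF13 bind the corepressor Sin3. In epithelial cells KLF4 is known for cell cycle arrest and differentiation and KLF5 for proliferation, while KLF6 and KLF10 are quickly induced by growth factors or TGF-β.

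The libraries held between 14999307 and 16501085 counts, and values below are CPM, the counts divided by library sizes that had been scaled with edgeR's TMM method. Smyca itself was measured at 25.0, 19.5 and 22.0 CPM in the control and 10.5, 6.97 and 5.61 CPM in the knockdown, a log2 ratio of control over knockdown of 1.53 (SE 0.26, edgeR's quasi-likelihood test, adjusted p = 0.111). By the counts, control replicate 3 stood apart from the other controls: its Spearman correlation across genes was 0.957 and 0.966 with control replicates 1 and 2, which correlated at 0.991 with each other, and mitochondrial genes took 4.99% of its counts against 1.78% to 2.72% in the other 5 libraries. This rests on the count column of control replicate 2, whose deposited FPKM column does not derive from its counts, and which of these columns belongs to the library is not resolved. The reads recovered from the FPKM column correlated at 0.996 with control replicate 3 and at 0.957 with control replicate 1, so that by those reads control replicate 1 stood apart. The cell line label was checked with marker genes, some of them chosen after the values had been seen. VIM and CD44, markers of mesenchymal/basal-like cells, were present at 71.2 to 305 and 9.31 to 37.2 CPM. Of the blood cell markers PTPRC had 0 counts and CD3E at most 4 per library. Of the endothelial markers CDH5 had at most 3 counts per library and PECAM1 had 11 to 65. Of 5 such mesenchymal/basal markers, 4 were higher in the control at an unadjusted p under 0.05, as were 10.4% of all genes, with a median log2 ratio of 0.94 over the 5, and VIM was at 148 to 305 CPM in the control and 71.2 to 130 CPM in the knockdown. All 5 markers had log2 ratios above 0, as had the KLF genes tested below, though AXL had only 0.37 (edgeR, unadjusted p = 0.316). VIM alone of the 5 had groups that did not overlap, as had 12.4% of all genes in that direction. The part of these markers in the KLF values was not tested. Of 5 markers of luminal breast cells, ESR1, PGR and FOXA1 had at most 3 counts per library, GATA3 had 19 to 61 counts, and KRT19 was at 850 to 1957 CPM. KRT8, a keratin of simple epithelia, reached 4249 to 7408 CPM, the epithelial cadherin CDH1 71.5 to 300 CPM, the hepatic and intestinal factor HNF4A 65.4 to 194 CPM, and CDKN2A, a gene that MDA-MB-231 is known to lack, 335 to 429 CPM. These levels go against the label, and the libraries are therefore called by their shRNA.

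The KLF genes that could be tested all had higher fitted levels in the control. After the filter on low counts, 9 of the 10 remained among the 15075 genes tested, all except KLF7, and each of the 9 had a log2 ratio of control over knockdown above 0, a sign that 53.4% of all genes tested had. This did not hold for KLF13 in 2 of 14 settings, with log2 ratios of -0.18 with the recovered reads of control replicate 2 and -0.16 without control replicate 1, and the lowest log2 ratios of KLF5 and KLF11 were 0.037 and 0.0049. The median log2 ratio of the 9 was 0.56, beside 0.036 for all genes tested. It was 0.14 for the 10 other KLF and SP genes tested, of which 3 were below 0. The members were chosen with earlier results of these data known, so these values describe the list only. KLF2, KLF4, KLF6 and KLF9 had ratios of at least 1.5, as had 15.6% of all genes, and 0 of the 9 had a ratio of at most 0.66, as had 5.54%. KLF2, KLF4 and KLF6 had every control library above every knockdown library, as had 12.4% of all genes.

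By edgeR's quasi-likelihood test, none of these differences met the study's criteria for a differentially expressed gene (DEG). These ask for an adjusted p under 0.05 together with a ratio of 1.5 or more, or of 0.66 or less. By this test 0 of 9 KLF genes were DEGs, and only 4 of all 15075 genes (0.0265%) were, all 4 higher in the control. The study, which used DESeq with the same criteria, reported far more DEGs, and its version of DESeq was not run here. At an unadjusted p under 0.05, KLF2, KLF4, KLF6 and KLF10 passed, each higher in the control, as did 10.4% of all genes in that direction and 19.2% in either direction. KLF2, KLF4 and KLF6 passed in all 14 settings, whereas KLF10 did not pass when control replicate 1, control replicate 3, knockdown replicate 2 or knockdown replicate 3 was left out, with log2 ratios of 0.51, 0.44, 0.50 and 0.42. KLF2, KLF4 and KLF6 were DEGs by DESeq2's Wald test, in which 5.98% of genes were, and by edgeR with no filter beyond 1 count, in which 3.01% were.

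**Figure D1:**
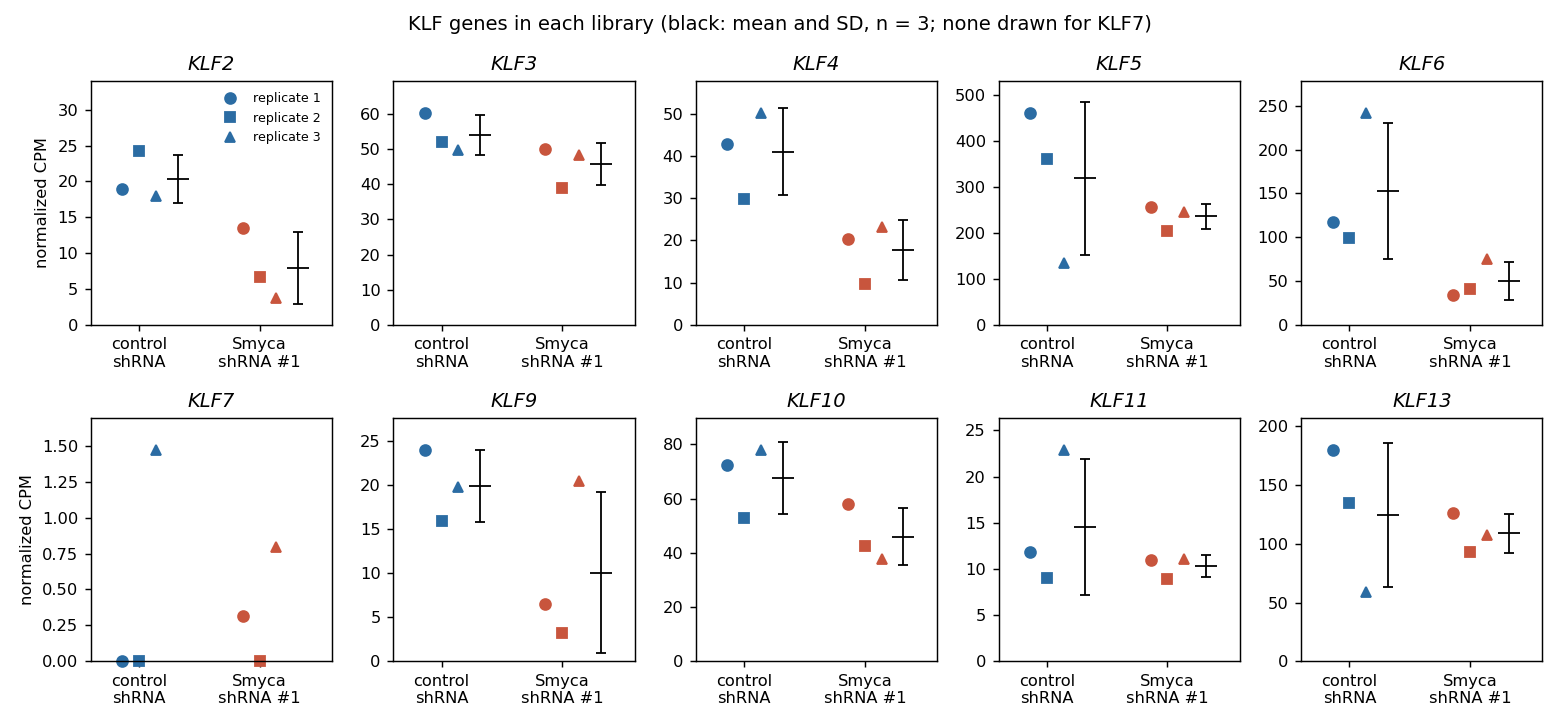
Normalized CPM (vertical axis, from 0, a scale of its own for each gene) of the 10 KLF genes in the 3 control shRNA libraries (blue) and the 3 Smyca shRNA #1 libraries (red), with the replicate given by the shape and the mean and SD in black. KLF2, KLF4 and KLF6 do not overlap between the groups, while control replicate 3 is the highest library for KLF4, KLF6, KLF7, KLF10 and KLF11 and the lowest for KLF5 and KLF13.

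KLF6 had the smallest p of the family in edgeR's fit of all libraries, though not in every fit with 1 library left out. Without control replicate 3, for example, KLF5 had a smaller p. KLF6, also known as COPEB, is a broadly expressed factor induced by injury and growth signals and described as a tumor suppressor. It was measured at 118, 98.8 and 242 CPM in the control and at 34.5, 40.4 and 74.5 CPM in the knockdown. Each control library lay above each knockdown library, and control replicate 3 was 2.24 times the mean of the other controls. The means were 153 ± 77.8 and 49.8 ± 21.6 CPM (SD, n = 3 each), a ratio of 3.07 with a 95% interval of 1.64 to 5.73, and edgeR's quasi-likelihood test gave an adjusted p of 0.122. Over 14 settings the log2 ratio lay between 1.11 and 2.02 and the adjusted p between 1.743e-04 and 0.440. The ratio without control replicate 3 was the lowest of these, at a log2 of 1.11, yet its adjusted p by edgeR was 0.0463, a DEG among the 10.5% of genes that were DEGs in that fit.

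KLF2, which is known for quiescence of endothelial cells and naive T cells and is induced by laminar flow and statins through MEK5 and ERK5, also had groups that did not overlap. It was measured at 18.9, 24.2 and 18.0 CPM in the control and at 13.5, 6.65 and 3.70 CPM in the knockdown. The control libraries lay close together, whereas the knockdown libraries spread 3.64 times from lowest to highest. The means were 20.4 ± 3.35 and 7.94 ± 5.01 CPM (SD, n = 3 each), a ratio of 2.56 with a 95% interval of 1.34 to 4.91, and edgeR's adjusted p was 0.147 (0.0101 to 0.455 over 14 settings). The log2 ratio was 1.36, and it was 1.97 without knockdown replicate 1 and 1.01 without knockdown replicate 3, the ends of its range. KLF2 has processed pseudogenes, near copies whose reads the counting could have split from it, and the most counted of them, KLF2P1, held 15 to 62 counts per library against 56 to 393 for KLF2.

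KLF4, a factor of epithelial differentiation and growth arrest that is also used to reprogram cells to pluripotency, showed a similar difference. It was measured at 42.9, 29.8 and 50.2 CPM in the control and at 20.3, 9.63 and 23.0 CPM in the knockdown. The lowest control library lay above the highest knockdown library. The means were 41.0 ± 10.3 and 17.7 ± 7.09 CPM (SD, n = 3 each), a ratio of 2.32 with a 95% interval of 1.38 to 3.89, and edgeR's adjusted p was 0.129 (0.00376 to 0.440 over 14 settings, with log2 ratios of 0.91 to 1.51). With 3 libraries against 3, an exact permutation test of a single gene cannot go below a two-sided p of 0.1, which is what each of these 3 genes would give.

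The promoters of these 3 genes are shown because their RNAs were the ones that did not overlap between the groups. Each stretch is reference sequence from RefSeq (GRCh38.p14), written 5′ to 3′ on the strand of the gene, and ends at the RefSeq start site or before the first base that GENCODE annotates as an exon of the gene. The stretch of KLF4 lies within the intron of a longer GENCODE transcript, and the other stretches lie outside the annotated genes. Capitals mark GC boxes (GGGCGG on either strand), to which KLF and SP factors can bind, and a MEF2 site (CTANNNNTAG).
KLF2, chr19:16324576-16324825, plus strand: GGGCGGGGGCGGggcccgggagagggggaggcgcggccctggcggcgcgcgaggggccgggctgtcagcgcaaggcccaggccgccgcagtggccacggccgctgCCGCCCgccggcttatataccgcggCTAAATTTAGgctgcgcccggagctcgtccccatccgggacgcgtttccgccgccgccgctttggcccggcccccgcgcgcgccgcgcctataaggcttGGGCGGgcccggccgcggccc
KLF4, chr9:107489770-107490019, minus strand: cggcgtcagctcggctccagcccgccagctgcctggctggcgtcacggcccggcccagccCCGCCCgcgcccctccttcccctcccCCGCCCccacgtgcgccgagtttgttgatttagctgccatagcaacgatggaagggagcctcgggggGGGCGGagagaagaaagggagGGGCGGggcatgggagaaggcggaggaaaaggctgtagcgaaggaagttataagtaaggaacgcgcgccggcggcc
KLF6, chr10:3785282-3785459, minus strand: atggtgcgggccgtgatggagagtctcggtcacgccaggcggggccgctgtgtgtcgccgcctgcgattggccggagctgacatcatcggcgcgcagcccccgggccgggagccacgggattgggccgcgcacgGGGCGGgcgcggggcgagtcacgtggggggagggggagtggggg

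The stretches hold 4 GC boxes in KLF2, 4 in KLF4 and 1 in KLF6, and the MEF2 site of KLF2 begins 120 bases before the start site. A window of KLF11, whose groups overlapped, also holds a match to CTANNNNTAG, in which the 4 middle bases can be any. This match begins 18 bases before the start site of KLF11. Of all 35116 RefSeq windows of 300 bases around a start site, 45% hold a GC box and 2.73% a match to CTANNNNTAG. The windows of the 3 genes are 69.0% to 80.7% G or C, beside a median of 58.7% over all windows. In the 13 windows of the 8 KLF genes in the table, the AP-1 site TGACTCA, which 4.95% of all windows hold, was not found, and the cyclic AMP response element TGACGTCA, which 1.85% hold, was found in 1 window of KLF11. A CArG box, the site of serum response factor, was found in 1 window of KLF7, as in 1.29% of all windows, and CACCC in windows of KLF5, KLF7, KLF11 and KLF13, as in 59.9%. These matches describe the letters of the windows and not binding in these cells.

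**Figure D2:**
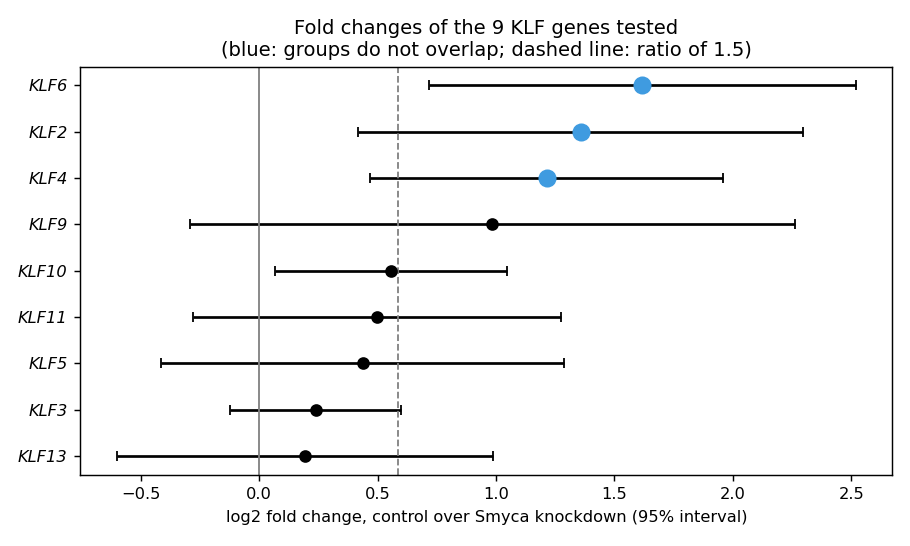
Log2 ratio of control over Smyca knockdown (horizontal axis) of the 9 KLF genes tested, with 95% intervals from edgeR's quasi-likelihood fit of 3 against 3 libraries. Blue points are genes whose groups do not overlap, the dashed line is a ratio of 1.5, and the intervals of KLF6, KLF2, KLF4 and KLF10 lie above 0.

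KLF10 and KLF11 are the TGF-β-inducible early genes TIEG1 and TIEG2, repressors that act through Sin3, and both had groups that overlapped. KLF10 was measured at 72.3, 52.7 and 78.1 CPM in the control and at 58.0, 42.5 and 37.6 CPM in the knockdown. Control replicate 2 lay below knockdown replicate 1, and the other controls lay above every knockdown library. The log2 ratio of KLF10 was 0.56 with a 95% interval of 0.07 to 1.05 (edgeR, adjusted p = 0.211). KLF11 was measured at 11.8, 8.98 and 22.9 CPM in the control and at 11.0, 8.93 and 11.1 CPM in the knockdown. Only control replicate 3 stood above the rest, at 2.20 times the mean of the other controls. The log2 ratio of KLF11 was 0.50 with a 95% interval of -0.28 to 1.27 (edgeR, adjusted p = 0.453), and it was 0.0049 without control replicate 3.

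KLF9, a Sin3-binding factor induced by glucocorticoids and thyroid hormone, varied widely among the knockdown libraries. It was measured at 24.1, 15.9 and 19.8 CPM in the control and at 6.54, 3.23 and 20.5 CPM in the knockdown. Knockdown replicates 1 and 2 were below every control, and knockdown replicate 3 lay within the control range. The log2 ratio was 0.98 with a 95% interval of -0.29 to 2.26 (edgeR, adjusted p = 0.371). Without knockdown replicate 3 it was 2.02 (edgeR, adjusted p = 0.112), and without knockdown replicate 2 it was 0.56, which is under a ratio of 1.5. The adjusted p lay between 0.112 and 0.668 over 14 settings, and knockdown replicate 3 was the library in which KLF2 was lowest.

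KLF3, the CtBP-recruiting repressor of the family, had a ratio close to 1. It was measured at 60.4, 52.1 and 49.8 CPM in the control and at 50.2, 39.0 and 48.4 CPM in the knockdown. The groups overlapped, and the log2 ratio was 0.24 with a 95% interval of -0.12 to 0.60 (edgeR, adjusted p = 0.440), which excludes a ratio above 1.52. KLF3-AS1, a long noncoding RNA gene on the opposite strand that overlaps 730 bases of KLF3, was measured at 14.4, 13.5 and 13.4 CPM in the control and at 7.05, 4.12 and 3.24 CPM in the knockdown. Its groups did not overlap, with a log2 ratio of 1.52 (SE 0.31, edgeR, adjusted p = 0.111). The libraries were strand-specific but the strand setting of the counting is not given in the sources used here, so reads in the shared stretch cannot be assigned with certainty. KLF3-AS1 was named after its values had been seen.

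KLF5 and KLF13 followed a pattern of their own. KLF5, known for proliferation of intestinal crypt and other epithelial cells, was measured at 462, 361 and 135 CPM in the control and at 257, 204 and 247 CPM in the knockdown. KLF13, known as an activator of CCL5 in T cells, was measured at 180, 135 and 58.8 CPM in the control and at 126, 93.3 and 107 CPM in the knockdown. In both, control replicates 1 and 2 lay above the knockdown libraries and control replicate 3 lay below them, at 0.329 and 0.373 times the mean of the other controls. The means of KLF5 were 320 ± 167 and 236 ± 28.1 CPM (SD, n = 3 each), a log2 ratio of 0.44 with a 95% interval of -0.42 to 1.29 (edgeR, adjusted p = 0.550). The log2 ratio of KLF13 was 0.19 with a 95% interval of -0.60 to 0.99 (edgeR, adjusted p = 0.790). Without control replicate 3, the log2 ratio was 0.80 for KLF5 (edgeR, adjusted p = 0.0237), a DEG among the 10.5% of genes that were DEGs in that fit. For KLF13 it was 0.52 (edgeR, adjusted p = 0.0974). Without control replicate 1, the log2 ratios of KLF5 and KLF13 were 0.079 and -0.16 (edgeR, adjusted p = 0.946 and 0.869).

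Genes induced by hypoxia also differed among the control libraries. The summed level of 10 of them, among them CA9, NDRG1 and VEGFA, was 5013, 2668 and 1565 CPM in control replicates 1, 2 and 3 and 1489 to 1985 CPM in the knockdown, so that the sum in control replicate 3 lay within the knockdown range. SLC2A1, at 1102 CPM in control replicate 3, made up most of that sum, and for 6 of the 10 genes, VEGFA among them, every control library lay above every knockdown library, as for 12.4% of all genes. Of the 10, 7 had an unadjusted p under 0.05, higher in the control, as had 10.4% of all genes. Their part in the values of KLF5 and KLF13 was not tested. Immediate-early genes, which cells switch on within minutes of stimulation, were higher in each control: the summed level of 10 of them, among them FOS, JUN and EGR1, was 2508, 1996 and 3619 CPM in the control and 1019, 694 and 795 CPM in the knockdown. All 10 had an unadjusted p under 0.05, as had 10.4% of all genes in that direction, and groups that did not overlap, as had 12.4%. This list and the hypoxia list were chosen with earlier results of these data known. DUSP1, JUN and ZFP36 were DEGs (edgeR, adjusted p = 0.0312 for each), as were 0.0265% of all genes. No gene was a DEG by edgeR with the replicate number as a block, or without control replicate 1, knockdown replicate 1 or knockdown replicate 2. KLF6 and the immediate-early sum were both highest in control replicate 3, and the part of these genes in the KLF values was not tested.

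The profiles over the 6 libraries set KLF5 and KLF13 closest together. On the log2(CPM + 1) scale, centred on each gene's mean, their root mean square difference was 0.134, the smallest of all pairs among the 9, and the next was 0.296 for KLF3 and KLF10. KLF6 and KLF13 were farthest apart, at 1.20. Among all genes tested, those with the profile most like that of KLF6 over the 6 libraries were HECTD2, a ubiquitin ligase gene (root mean square difference 0.185), RHOB, a small GTPase gene (0.195), and PGGHG (0.204). RHOB was measured at 211, 241 and 566 CPM in the control and at 83.6, 104 and 141 CPM in the knockdown, highest in control replicate 3 as KLF6 was. These points share the same 6 libraries, and the likeness is a description.

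The reads recovered from the FPKM column of control replicate 2 gave other KLF levels than its counts, whereas in the other 5 libraries the FPKM values derive from the counts. KLF5 was at 138 CPM by these reads and 361 CPM by the counts, KLF13 at 54.2 and 135 CPM, KLF6 at 238 and 98.8 CPM, KLF4 at 58.3 and 29.8 CPM, and KLF11 at 20.5 and 8.98 CPM. KLF10 was at 76.3 CPM by these reads and 52.7 CPM by the counts, and KLF9 at 21.6 and 15.9 CPM. KLF2 and KLF3 moved less, with 23.0 and 24.2 CPM for KLF2 and 48.1 and 52.1 CPM for KLF3. For KLF4, KLF5, KLF6, KLF9, KLF10, KLF11 and KLF13, the recovered reads thus lay nearer to control replicate 3 than the counts did. With these reads in place of the counts, the log2 ratio of KLF5 was 0.037 and that of KLF13 was -0.18. Those of KLF6, KLF4, KLF9, KLF11 and KLF10 were higher than with the counts, at 1.99, 1.51, 1.1, 0.83 and 0.71. Those of KLF2 and KLF3 were 1.32 and 0.19. In this setting 5 KLF genes did not overlap between the groups (KLF2, KLF4, KLF6, KLF10 and KLF11), each higher in the control, as were 13.9% of all genes tested.

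KLF7, which is known from neurons, was barely detected. It had 0, 0 and 23 counts in the control and 5, 0 and 12 counts in the knockdown, or at most 1.47 CPM, and was left out of the test by the filter. The recovered reads of control replicate 2 gave 32 for KLF7, or 1.85 CPM, where its counts gave 0. A count of 0 allows up to 3 counts per library, for counting error only. No difference in KLF7 was detectable at this depth.

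**Figure D3:**
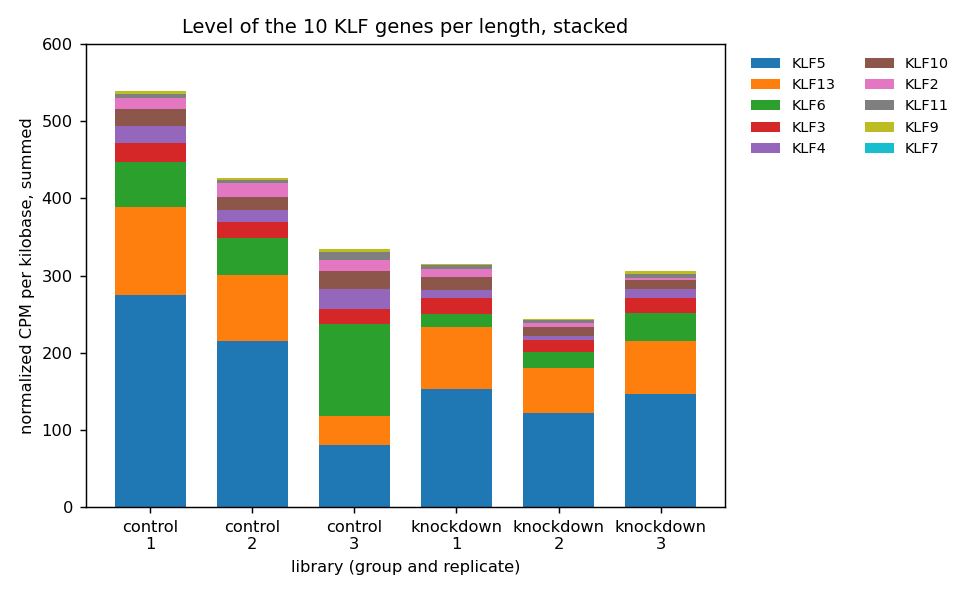
Normalized CPM per kilobase of gene length (vertical axis, from 0), summed over the 10 KLF genes and split by gene, in the 3 control and 3 Smyca knockdown libraries. KLF5 makes up 48.0% to 51.0% of the sum in 5 libraries and 24.1% in control replicate 3, where KLF6 is the largest share. The bars use the counts, and by the recovered reads KLF5 would be 24.4% of the sum in control replicate 2 too.

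Per length, KLF5 had the highest mean level in both groups and led in 5 of 6 libraries by the counts. In control replicate 3, KLF6 led with 119 CPM per kilobase against 80.6 for KLF5, and by the recovered reads of control replicate 2 KLF6 led there too, with 117 against 82.2. Levels per gene length are given as CPM per kilobase, with the length that the deposited FPKM values used. In the control, the level per kilobase was 190 ± 99.6 for KLF5, 79.2 ± 38.9 for KLF13 and 75.2 ± 38.3 for KLF6 (SD, n = 3), and the ranges of these 3 overlapped from one to the next. A second set followed below KLF6 without overlap, with levels per kilobase of 21.6 ± 2.23 for KLF3, 21.4 ± 5.39 for KLF4, 20.0 ± 3.93 for KLF10 and 15.8 ± 2.59 for KLF2 (SD, n = 3), whose neighbours in this order overlapped. KLF11 at 6.35 ± 3.21 and KLF9 at 3.85 ± 0.79 CPM per kilobase lay lower again and overlapped each other, and KLF7 was at most 0.599 CPM per kilobase. In the knockdown the order was the same except that KLF10, at 13.6 ± 3.15 CPM per kilobase, stood above KLF4, at 9.22 ± 3.70, and their ranges overlapped. There KLF5, KLF13 and KLF6 were separate, at 141 ± 16.8, 69.2 ± 10.6 and 24.5 ± 10.7 CPM per kilobase (SD, n = 3). The sum over the 10 genes was 540, 427 and 335 CPM per kilobase in the control and 315, 243 and 306 in the knockdown.

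Of 17 other genes of the KLF and SP families, 10 passed the filter on low counts, with a median log2 ratio of 0.14. KLF12 and KLF15 had an unadjusted p under 0.05, both higher in the control, where 10.4% of all genes were, and 0 were lower, where 8.74% of all genes were. KLF15, a glucocorticoid-induced regulator of metabolism, was measured at 11.9, 10.4 and 8.97 CPM in the control and at 3.43, 1.46 and 4.95 CPM in the knockdown. It was the single one of the 10 whose groups did not overlap, where 12.4% of all genes did not in that direction, with a log2 ratio of 1.67 (SE 0.41, edgeR, adjusted p = 0.122). KLF12, a CtBP-binding repressor, had a log2 ratio of 0.66 (SE 0.28, edgeR, adjusted p = 0.244) and groups that overlapped. KLF1, KLF8, KLF14, KLF17, KLF18, SP7 and SP8 were left out of the test for low counts. SP5, a target of Wnt signaling, was at 381 to 476 CPM in the control and 239 to 615 CPM in the knockdown.

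Among cofactors of the KLFs, the acetyltransferase genes CREBBP and EP300 had lower levels in each control library, and KAT2B, a further acetyltransferase gene, had higher levels, at 6.92 to 7.38 CPM in the control and 4.12 to 6.07 CPM in the knockdown (log2 ratio 0.54, edgeR, adjusted p = 0.288). All 10 cofactor genes were tested, with a median log2 ratio of -0.19. At an unadjusted p under 0.05, 4 were lower in the control, where 8.74% of all genes were, and 5 did not overlap between the groups in that direction, where 12.5% of all genes did not. CREBBP, which encodes CBP, was measured at 108, 92.2 and 119 CPM in the control and at 166, 193 and 180 CPM in the knockdown, with a log2 ratio of -0.75 (SE 0.15, edgeR, adjusted p = 0.111). Its paralog EP300, encoding p300, was at 86.3 to 98.0 CPM in the control and 122 to 125 CPM in the knockdown, with a log2 ratio of -0.41 (SE 0.13, edgeR, adjusted p = 0.154). The corepressor genes SIN3A and CTBP1 had log2 ratios of -0.59 and -0.33 (edgeR, adjusted p = 0.212 and 0.236).

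Of 10 genes for regulators of KLF levels, 9 were tested, with a median log2 ratio of 0.24. FBXW7, a ubiquitin ligase subunit that marks KLF2 and KLF5 for degradation, was the single one with an unadjusted p under 0.05, where 10.4% of all genes were, at a log2 ratio of 0.43 (SE 0.18, edgeR, adjusted p = 0.247). FBXW7 and MAP2K5, which encodes MEK5, were higher in each control library than in each knockdown library, as were 12.4% of all genes. MAPK7, which encodes ERK5, was at 32.5 to 42.6 CPM in the control and 26.4 to 40.3 CPM in the knockdown (edgeR, adjusted p = 0.538). MEF2C had 0 counts in each library, while MEF2A and MEF2D were detected.

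Genes described as KLF targets went in both directions. Of 18, 15 were tested, with a median log2 ratio of 0.36, 6 higher and 3 lower in the control at an unadjusted p under 0.05, where 10.4% of all genes were higher and 8.74% lower. The urokinase gene PLAU was measured at 48.0, 32.5 and 23.1 CPM in the control and at 12.6, 11.0 and 8.85 CPM in the knockdown (log2 ratio 1.67, SE 0.28, edgeR, adjusted p = 0.111). The cell cycle inhibitor gene CDKN1A, the TGF-β coreceptor gene ENG, COL1A1 and NOS3 had log2 ratios of 1.69, 1.20, 1.11 and 1.74, with adjusted p-values of 0.125 to 0.253 (edgeR), and NOS3 was at most 7.03 CPM. The cyclin genes CCNB1 and CCND1 and the receptor gene TGFBR1 had log2 ratios of -0.78, -0.61 and -0.51 (edgeR, adjusted p = 0.144, 0.221 and 0.238). CCL5, S1PR1 and THBD were left out of the test for low counts.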

How the data were processed

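Per the study's methods, the authors removed rRNA, made strand-specific libraries, read paired ends on a HiSeq4000, aligned the reads by TopHat v2.0.12 (build GRCh38) and used HTSeq for counting. The authors deposited, per library, a raw count and an FPKM value for each of 58302 Ensembl genes. The deposited counts were used for every test. The deposited FPKM values served to check the files and gave gene lengths, and for control replicate 2 they gave whole reads (16759253 over 23593 genes, 100% within 0.05 of a whole number). Mapping and counting could not be changed from there. Annotation release and strand setting are not given in the sources used here.

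Symbols came from GENCODE release 44 (57532 of 58302 identifiers matched). In R 4.3.3, counts of 3 control and 3 Smyca knockdown libraries, grouped by their labels, were filtered with filterByExpr, TMM-scaled and tested with the quasi-likelihood test of edgeR 4.0.16 across 15075 genes, with Benjamini-Hochberg adjustment. The DESeq version of the study was replaced by edgeR. SE and 95% intervals come from the same fit. Normalized CPM are counts over the TMM-scaled library size, and profiles used log2(CPM + 1). Total counts lay between 14999307 and 16501085, and the biological coefficient of variation was 25.2%.

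The named genes were all 10 members, the genes of fixed KLF/SP, cofactor, regulator and target lists that passed an unadjusted p of 0.05 or went untested (except 1 target gene with p under 0.05, which is counted but not reported by name here), and the 3 genes most like the member with the smallest p. Members and lists were chosen with earlier results of these data known. Immediate-early and hypoxia-inducible genes were fixed as lists for context, with 3 named examples each (CA9, NDRG1, VEGFA, FOS, JUN, EGR1) and the DEGs DUSP1, JUN and ZFP36. These names, SP5, KAT2B, SLC2A1, MAP2K5, MAPK7, MEF2A, MEF2D, KLF2P1, KLF3-AS1 and some cell line markers were chosen after their values were seen. Alternatives were DESeq2 1.42.0, scaling by RLE or total counts, a minimum of 10 counts in each of the libraries, no filter beyond 1 count, the replicate number as a block, each library left out, other thresholds and the recovered reads. Scripts were tested on simulated data with known changes. Promoters were matched by symbol in the RefSeq table for 8 of 10 members, and KLF3 and KLF10 were not matched.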

Additional observations from a re-analysis of the deposited data

How the results depend on the processing

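KLF7 was left out of the test for low counts, and KLF2 rested on 56 to 393 counts per library. How far depth or replicate spread limited these comparisons was not tested. Of 117 alternative values of single KLF genes, 107 kept their direction and their side of the threshold, 8 passed it and 2 changed direction. Both changes were of KLF13, with log2 ratios of -0.18 with the recovered reads of control replicate 2 and -0.16 without control replicate 1, while it ranged from -0.16 to 0.52 with 1 library left out. The number of KLF genes among the DEGs was 0, and it was 3 with no filter beyond 1 count and 3 by DESeq2 (KLF2, KLF4 and KLF6), and 0 to 2 with 1 library left out (KLF5 and KLF6 without control replicate 3). Among all genes there were 4 DEGs, 8 with total counts, 8 at an adjusted p under 0.1, 10 with the recovered reads, 916 of 30409 with no filter beyond 1 count and 866 of 14486 by DESeq2. With 1 library left out there were 0 to 1628. By edgeR there were 0 without control replicate 1, knockdown replicate 1 or knockdown replicate 2 (1730, 2479 and 1687 genes at an unadjusted p under 0.05). DESeq2 was not run on these. There were 2 without control replicate 2 or knockdown replicate 3, and 1628 of 15449 (10.5%) without control replicate 3. KLF genes whose groups did not overlap, each higher in the control, numbered 3 of 9 (12.4% of all genes tested), 5 with the recovered reads (13.9%), and 3 to 6 with 1 library left out, where 14.6% to 25.1% of all genes did so: 5 without control replicate 2 (16.8%), 6 without control replicate 3 (25.1%) and 5 without knockdown replicate 1 (17.7%). The cause of these differences was not tested.

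Same-numbered control and knockdown libraries deviated together with correlations of 0.054, 0.094 and 0.021 across genes, none above 0.1. Pairs with different numbers lay between -0.142 and 0.055. Deviations from means of 3 libraries cannot decide whether same-numbered libraries shared a culture or batch. With the replicate block, edgeR gave 0 DEGs (2568 genes at an unadjusted p under 0.05), and log2 ratios of 1.53 for KLF2, 1.27 for KLF4 and 1.59 for KLF6.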
